A study of Mus musculus with 48 samples.

Results

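The 51 genes described here encode the hydrolases of the lysosome, the proton pump that acidifies it, proteins of its membrane, and the core machinery of autophagy. They were chosen by symbol and known function, with earlier results of these data known. Each symbol matched 1 of the 51789 gene IDs in the deposited count table. By role they comprise 11 proteases (cathepsins, legumain and tripeptidyl peptidase), 8 glycosidases, lipases and sphingolipid activators, 7 membrane and transport proteins, 2 transcription factors, 13 subunits or accessory proteins of the vacuolar proton ATPase (V-ATPase), and 10 autophagy genes. All 51 had at least 1 count in each of the 48 libraries and passed the filter on low counts.

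Lysosomes break down material that macrophages engulf, and autophagy delivers the cell's own proteins and organelles to the same compartment. The hydrolases work only at acid pH, which the V-ATPase maintains through a membrane sector (V0) that carries protons and a cytosolic sector (V1) that splits ATP. The factors TFEB and TFE3 are held in the cytosol by the kinase complex mTORC1 in fed cells and move to the nucleus upon starvation or lysosomal stress, where they bind the E-box motif CACGTG in promoters of many lysosomal and autophagy genes.

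Macrophages of C57BL/6 mice had been profiled by sequencing the 3′ ends of their mRNA, in 16 groups of 3 libraries. Each of 8 populations was kept for 4 h with 10 µM AP-3-84, a compound known in the labels by this code only, or with the same amount of its vehicle DMSO. The ascites population consisted of F4/80-positive cells, isolated on magnetic beads, from peritoneal washes of mice that had carried the ovarian tumour line ID8 for 45 days, with the genotype given as B6(Cg)-Tyrc-2J/J. The thio population consisted of F4/80-positive peritoneal cells of wild-type mice, sorted likewise 4 days after 1 ml of 3% thioglycolate, an irritant that recruits macrophages. The other 6 populations were derived from bone marrow of wild-type (WT) or p53 knockout (KO) mice over 6 days in 10 ng/mL M-CSF, a macrophage growth factor. They received no further cytokine (M0), or were kept for another 24 h with LPS (100 ng/mL) plus IFN-γ (50 ng/mL), called M1, or with IL-4 plus IL-13 (10 ng/mL of each cytokine), called M2. M1 and M2 name inflammatory and alternative activation. The genotype field of the labels calls all bone marrow-derived libraries wild-type, so WT and KO follow the titles and descriptions. The labels do not give ages, which part of the p53 gene was removed, or whether the 3 libraries of a group came from separate animals, so p-values measure the spread between these libraries only.

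Libraries held 15532373 to 19417581 counts in the 12 peritoneal samples and 3081707 to 4645148 in the 36 bone marrow-derived ones, and the kinds were fitted apart. All 10 macrophage markers were detected in each kind, with summed levels of 25000 to 35600 counts per 1000000 counts (CPM) and 6500 to 49800 CPM. Levels of Ccng1, a p53 target, were 74.8 to 240 CPM with WT labels but 25.1 to 43.8 CPM with KO labels, with no overlap, while Trp53 itself overlapped (4.79 to 13.2 CPM and 2.70 to 9.11 CPM). The nearest library by correlation was of the same group for 12 of 12 peritoneal libraries but for only 20 of 36 bone marrow-derived ones, although 35 of the 36 had a nearest library of their own population. The 3 KO M0 libraries with AP-3-84 differed widely from one another: Marco, a scavenger receptor of macrophages, stood at 2896, 2067 and 473 CPM there against 16.8, 17.6 and 14.3 CPM with vehicle. In WT M0 vehicle libraries it was at 1171, 1963 and 2070 CPM, so the KO M0 vehicle libraries were the ones far below WT M0. WT M2 vehicle replicate 1 also stood apart from its group, with Marco at 1089 CPM against 130.3 and 83.6 CPM. KO M2 vehicle libraries ranged from 48249 and 41672 CPM summed over the 51 genes in replicates 2 and 3 to 81444 CPM in replicate 1. Whether the treatment and polarization labels of these libraries are right was not tested.

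Promoters of the members are shown for the E-box of TFEB and TFE3. Promoter letters were not used to choose the members, but they were chosen by functions that many genes bound by these factors share. Of the 51 members, 42 had a window in the RefSeq promoter table (GRCm38.p6, 250 bases before to 50 bases after the start). Those without were Ctsb, Ctsh, Npc1, Atp6v0d2, Atp6v1b2, Atp6v1c1, Atp6v1h, Map1lc3a and Becn1. The palindrome CACGTG, read on both strands, occurred in 14 of these 42 (33.3%), against 8.09% of the 27025 genes in the table. The longer TCACGTGA, which contains it, occurred in 7 of the 42 (16.7%) against 1.12% of genes. A match is a description of letters and not evidence of binding. The following windows of 30 bases, with CACGTG in capitals, hold 1 match each from 10 of the 14 members with the motif. Lamp1 had 4 matches within its window, and its most upstream match is given. Ctsa, Gla, Mcoln1 and Slc36a1 each had a further match that is not shown, and the further match of Ctsd is in its longer sequence below.
Ctsd (chr7:142387908-142387937, minus strand): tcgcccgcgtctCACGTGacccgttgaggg
Ctsa (chr2:164833749-164833778, plus strand): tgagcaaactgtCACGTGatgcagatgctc
Ctsl (chr13:64370739-64370768, minus strand): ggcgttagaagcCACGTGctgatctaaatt
Gla (chrX:134601215-134601244, minus strand): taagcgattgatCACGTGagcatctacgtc
Glb1 (chr9:114401018-114401047, plus strand): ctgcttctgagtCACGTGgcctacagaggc
Lamp1 (chr8:13159088-13159117, plus strand): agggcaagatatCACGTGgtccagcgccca
Mcoln1 (chr8:3500462-3500491, plus strand): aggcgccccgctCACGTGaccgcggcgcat
Slc36a1 (chr11:55204325-55204354, plus strand): gggagccagcatCACGTGacagggcccgga
Atp6v0d1 (chr8:105566050-105566079, minus strand): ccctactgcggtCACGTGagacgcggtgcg
Atp6v1a (chr16:44139373-44139402, minus strand): ttttttttaaatCACGTGataggcttaacg

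The 250 bases before the start are given whole for 2 members, Ctsd, which holds 2 matches in capitals, and Gabarapl1, which holds none.
Ctsd (chr7:142387828-142388077, minus strand): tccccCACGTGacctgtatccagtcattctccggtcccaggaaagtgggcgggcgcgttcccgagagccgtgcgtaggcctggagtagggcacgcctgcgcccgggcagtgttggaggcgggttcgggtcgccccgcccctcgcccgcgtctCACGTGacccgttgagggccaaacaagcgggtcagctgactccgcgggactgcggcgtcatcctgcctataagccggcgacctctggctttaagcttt
Gabarapl1 (chr6:129532942-129533191, plus strand): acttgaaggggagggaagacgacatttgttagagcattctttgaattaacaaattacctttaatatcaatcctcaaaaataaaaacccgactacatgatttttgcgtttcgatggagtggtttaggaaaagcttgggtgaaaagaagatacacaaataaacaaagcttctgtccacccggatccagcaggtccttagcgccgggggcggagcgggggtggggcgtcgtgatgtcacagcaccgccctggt

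Without compound, the lysosomal genes were lower in ascites than in thio macrophages. The members took 5.26% ± 0.113 of all counts in ascites and 9.48% ± 0.0920 in thio vehicle libraries (SD, n = 3). Such a share weighs the most abundant members most. With edgeR's quasi-likelihood test and Benjamini-Hochberg adjustment at 0.05, 43 of the 51 differed, 38 lower and 5 higher in ascites, while 33.7% of all genes tested differed (20.3% higher and 13.4% lower). The median log2 fold change was -0.60 over the members and 0.05 over all genes tested. The populations differ in tumour, irritant and stated strain at once, and these cannot be told apart. Because the cells were measured in bulk, fewer cells of a type and less RNA per cell cannot be told apart.

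Among the proteases, 7 of 11 fell and 3 rose in ascites relative to thio. Ctsk, a collagen-cleaving cathepsin best known from osteoclasts, had 4.79, 6.21 and 8.35 CPM in the 3 ascites and 114, 117 and 118 CPM in the 3 thio libraries. Every ascites library lay far below every thio library (log2 fold change -4.17 ± 0.15 (SE), adjusted p = 2.43e-12). Ctsl, an endopeptidase with a broad range of substrates, was at 342, 367 and 345 CPM in ascites and 1503, 1366 and 1434 CPM in thio (log2 fold change -2.03 ± 0.07 (SE), adjusted p = 7.52e-13). Ctsd, the main aspartic protease of lysosomes, was at 4150, 5172 and 5771 CPM in ascites and 19160, 15590 and 14650 CPM in thio (log2 fold change -1.71 ± 0.15 (SE), adjusted p = 5.93e-06). Neither Ctsl nor Ctsd overlapped between the groups. Ctss, a cathepsin of antigen processing, was lower as well (log2 fold change -0.50 ± 0.06 (SE), adjusted p = 6.37e-06). Ctsc, which activates serine proteases of immune cells, went the other way, with 502, 552 and 503 CPM in ascites and 66.2, 66.7 and 66.2 CPM in thio (log2 fold change 2.97 ± 0.08 (SE), adjusted p = 1.8e-14).

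Sugar- and lipid-degrading enzymes and their activators were lower in ascites for 7 of 8. Psap, the precursor of the saposins that present sphingolipids to hydrolases, had 13820, 13300 and 13450 CPM in ascites and 33660, 35550 and 35780 CPM in thio, without overlap (log2 fold change -1.37 ± 0.05 (SE), adjusted p = 5.33e-13). Of the 7 membrane and transport genes, 5 fell and 2 rose. Npc2, which hands cholesterol to the membrane protein Npc1, rose from 2034, 2114 and 2025 CPM in thio to 3501, 3645 and 3871 CPM in ascites (log2 fold change 0.84 ± 0.07 (SE), adjusted p = 6.12e-08), and Lamp2, an abundant glycoprotein of the lysosomal membrane, was 0.33 higher on the log2 scale (adjusted p = 0.00023). Npc1 itself fell (log2 fold change -1.19 ± 0.06, adjusted p = 3.53e-11), as did Lamp1 (-0.42, adjusted p = 5.52e-06) and the lysosomal calcium channel Mcoln1 (-0.74, adjusted p = 0.00161).

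All 13 V-ATPase genes were lower in ascites (median log2 fold change -0.67). Atp6v0d2, a V0 subunit that is restricted to macrophages, osteoclasts and a few other cell types, had 29.0, 28.9 and 26.7 CPM in ascites and 766, 774 and 844 CPM in thio libraries. The levels did not overlap, and this was the largest difference of any member in this comparison (log2 fold change -4.82 ± 0.09 (SE), adjusted p = 1.39e-16). Its widely expressed counterpart Atp6v0d1 differed less (log2 fold change -0.55 ± 0.07 (SE), adjusted p = 7.42e-06). Of the transcription factors, Tfeb had 5.09, 11.3 and 15.6 CPM in ascites and 22.6, 13.4 and 14.6 CPM in thio and was not called (adjusted p = 0.209). Tfe3 was -0.24 on the log2 scale (adjusted p = 0.0116), a call lost without ascites vehicle replicate 1 or 2 (adjusted p = 0.052 to 0.0556) and under scaling by total counts. Autophagy genes fell in 5 of 10, among them Gabarapl1 (log2 fold change -1.22 ± 0.08), which encodes a ubiquitin-like protein of the autophagosome membrane, and Map1lc3b (-0.42 ± 0.06), which encodes the related LC3B. Ulk1 (adjusted p = 0.821) and Wipi1 (adjusted p = 0.391) were not called.

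Of the 43 calls between ascites and thio, 34 held under every alternative tried but a minimum fold change, and 40 held whichever library was left out. Besides Tfe3, Hexa was lost without thio vehicle replicate 1 (log2 fold change -0.67, adjusted p = 0.0595) and Atp6ap1 without ascites or thio vehicle replicate 3 (adjusted p = 0.0571 to 0.062). Markers of ovarian, ID8 or mesothelial cells summed to 211 CPM or more in ascites and 2.98 to 4.98 CPM in thio vehicle libraries, with all 9 detected in the peritoneal libraries, and their part in the result was not tested. From lists of 134 other lysosomal and autophagy genes, 59 fell and 11 rose. They included Rragd, a Rag GTPase that recruits mTORC1 to lysosomes (log2 fold change -2.87 ± 0.12 (SE), adjusted p = 2.27e-12), and Tfec, a relative of TFEB expressed in macrophages, which rose (log2 fold change 1.93 ± 0.16 (SE), adjusted p = 2.63e-08).

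**Figure D1:**
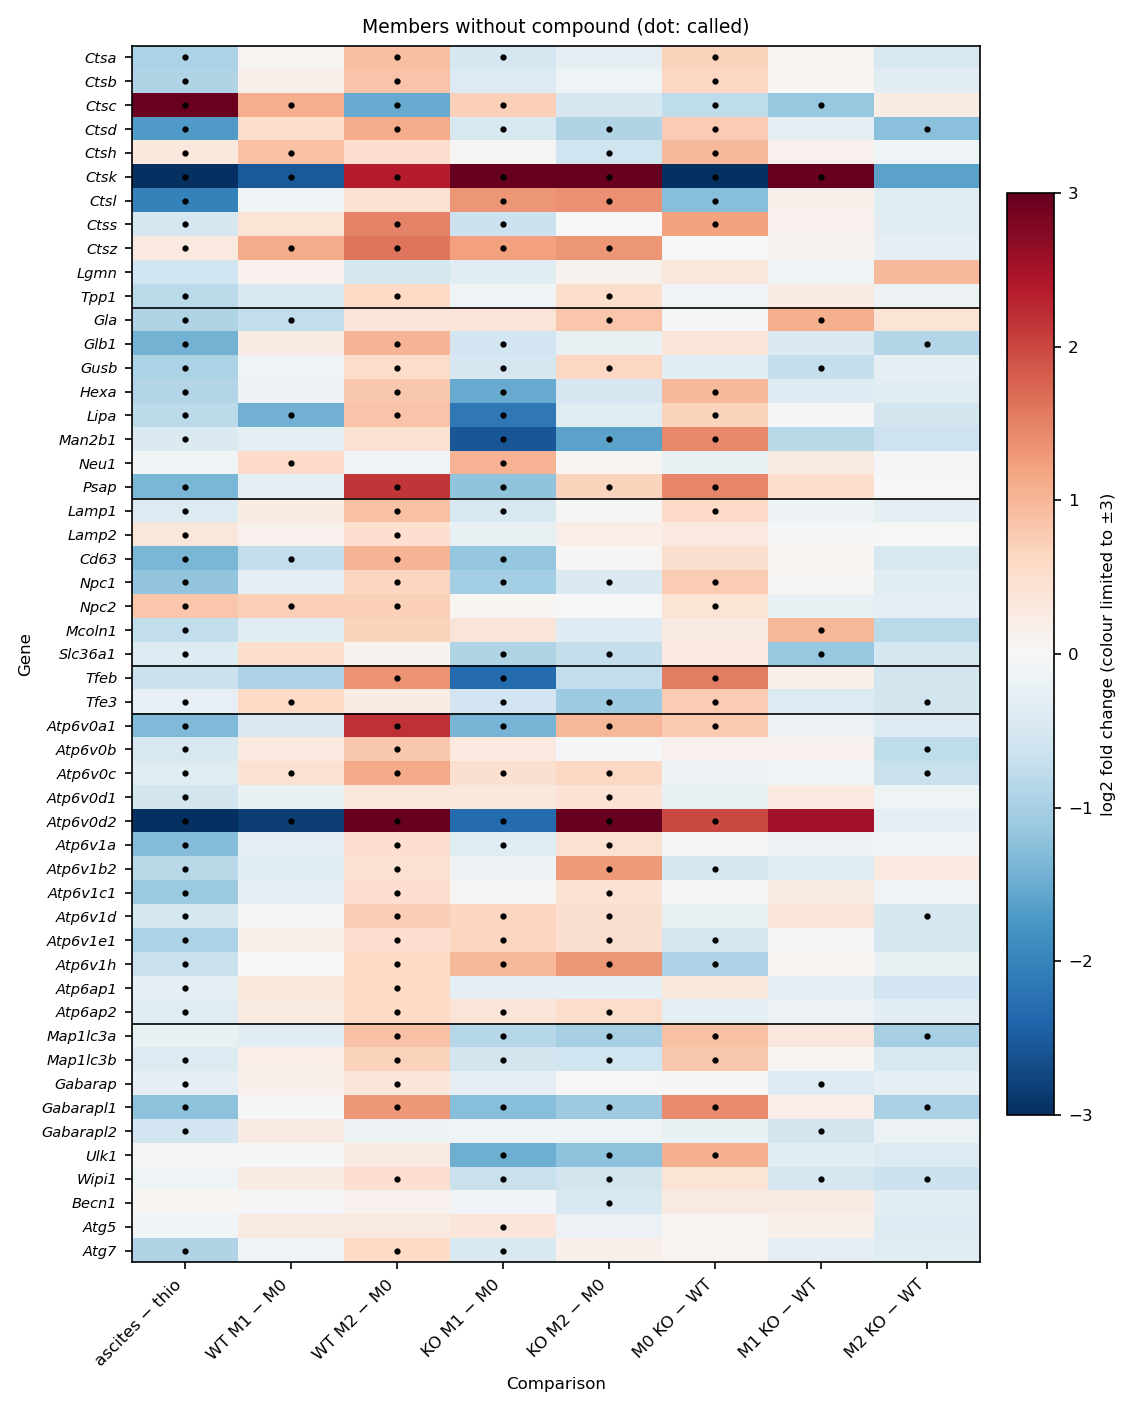
Heat map of log2 fold changes between vehicle groups (columns, first minus second) for the 51 members (rows, ordered by role, lines between roles), with colour limited to 3 in either direction and a dot where edgeR called the gene. The ascites minus thio column has 38 lower and 5 higher members, and the WT M2 minus M0 column has 36 higher and 1 lower.

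Alternative activation of WT bone marrow-derived macrophages was accompanied by higher levels of most members. Relative to M0, 36 members rose and 1 fell in M2, against 23.4% of all genes tested (12.7% higher and 10.7% lower). The median log2 fold change was 0.61, against 0.01 over all genes. The share of counts taken by the members was 3.28% ± 0.142 in M0, 3.04% ± 0.124 in M1 and 6.58% ± 0.528 in M2 vehicle libraries (SD, n = 3).

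Proteases rose in 7 of 11. Ctss was at 1204, 1489 and 1637 CPM in M0 and 3036, 4718 and 4477 CPM in M2, without overlap (log2 fold change 1.50 ± 0.25 (SE), adjusted p = 5.84e-05). Ctsd was at 5573, 3892 and 4021 CPM in M0 and 9122, 8144 and 11870 CPM in M2, also without overlap (log2 fold change 1.11 ± 0.20 (SE), adjusted p = 7.56e-05). Ctsz, a carboxypeptidase, rose by 1.60 on the log2 scale (adjusted p = 2.95e-09). Ctsk was called (log2 fold change 2.37 ± 0.63 (SE), adjusted p = 0.00747), with 20.6, 11.0 and 15.8 CPM in M0 and 191, 35.6 and 18.4 CPM in M2. Only WT M2 vehicle replicate 1 was far above the M0 libraries, and without it the call was lost (log2 fold change 0.76, adjusted p = 0.33). Across the 3 WT M2 vehicle libraries the summed osteoclast markers (7 of 7 detected) ranged from 146 to 1110 CPM and the neutrophil markers (10 of 10 detected) from 466 to 4040 CPM, and their part in the result was not tested. Ctsc was the only member that fell, from 361, 482 and 410.5 CPM in M0 to 141, 158 and 143 CPM in M2 (log2 fold change -1.50 ± 0.23 (SE), adjusted p = 1.16e-05). Ctsl was not called (adjusted p = 0.453).

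Psap led the enzyme activators, from 4861, 5188 and 5343 CPM in M0 to 18700, 28070 and 21440 CPM in M2 (log2 fold change 2.15 ± 0.26 (SE), adjusted p = 3.26e-07). The M2 libraries were all above the M0 libraries. Glycosidases, lipases and activators rose in 5 of 8 and membrane proteins in 5 of 7, including Lamp1 (log2 fold change 0.88 ± 0.13) and Cd63, a tetraspanin of late endosomes (1.01 ± 0.20). Mcoln1 was not called (adjusted p = 0.109).

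V-ATPase genes rose in 12 of 13, the exception being Atp6v0d1 (adjusted p = 0.119). Atp6v0d2 went from 14.8, 11.2 and 19.9 CPM in M0 to 577, 881 and 865 CPM in M2, the largest change of any member (log2 fold change 5.66 ± 0.67 (SE), adjusted p = 8.66e-07). Atp6v0a1, the subunit that anchors the pump in lysosomes of many cells, went from 143, 108 and 127 CPM to 525, 546 and 657 CPM (log2 fold change 2.20 ± 0.19 (SE), adjusted p = 4.78e-10). For both genes every M2 library was above every M0 library. The V1 subunits rose less, from 0.46 for Atp6v1b2 to 0.74 for Atp6v1d on the log2 scale. Of these, Atp6v1e1 and Atp6v1h lost their call and most of their difference without WT M2 vehicle replicate 1 (log2 fold change 0.18, adjusted p = 0.465 and log2 fold change 0.23, adjusted p = 0.446), and Atp6v1b2 its call (adjusted p = 0.0553 to 0.0722), as it also did without WT M0 vehicle replicate 2 or 3.

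Tfeb was called in M2 against M0 (log2 fold change 1.35 ± 0.35 (SE), adjusted p = 0.00494), with 7.40, 10.8 and 11.0 CPM in M0 and 9.46, 25.6 and 39.6 CPM in M2. Replicate 1 of M2 overlapped the M0 level of the gene, and the call was lost without WT M2 vehicle replicate 3 (log2 fold change 0.85, adjusted p = 0.107). Tfe3 was not called (adjusted p = 0.317). Autophagy genes rose in 6 of 10, led by Gabarapl1 from 59.9, 51.1 and 81.3 CPM to 123, 155 and 194 CPM (log2 fold change 1.29 ± 0.26 (SE), adjusted p = 0.000403). Map1lc3b rose too (log2 fold change 0.69 ± 0.17, adjusted p = 0.00271), though it overlaps a gene model on the same strand, Gm20388, and reads of the 2 may not be told apart. Wipi1, which binds the lipids of forming autophagosomes, was called (0.50 ± 0.16, adjusted p = 0.0215) but not without WT M0 vehicle replicate 2 or WT M2 vehicle replicate 1 or 3 (adjusted p = 0.0537 to 0.113). Ulk1, the kinase that starts autophagy, was not (adjusted p = 0.48).

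Scaling by total counts, which gave a median of all genes of -0.20 in M2 against M0, left 21 of the 37 calls, 20 of them higher. Of the 131 other lysosomal and autophagy genes tested, 40 rose and 7 fell. Rragd rose (log2 fold change 2.38 ± 0.42 (SE), adjusted p = 6.97e-05), and Pla2g15, a lysosomal phospholipase, rose as well (log2 fold change 1.48 ± 0.21 (SE), adjusted p = 2.58e-06).

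**Figure D2:**
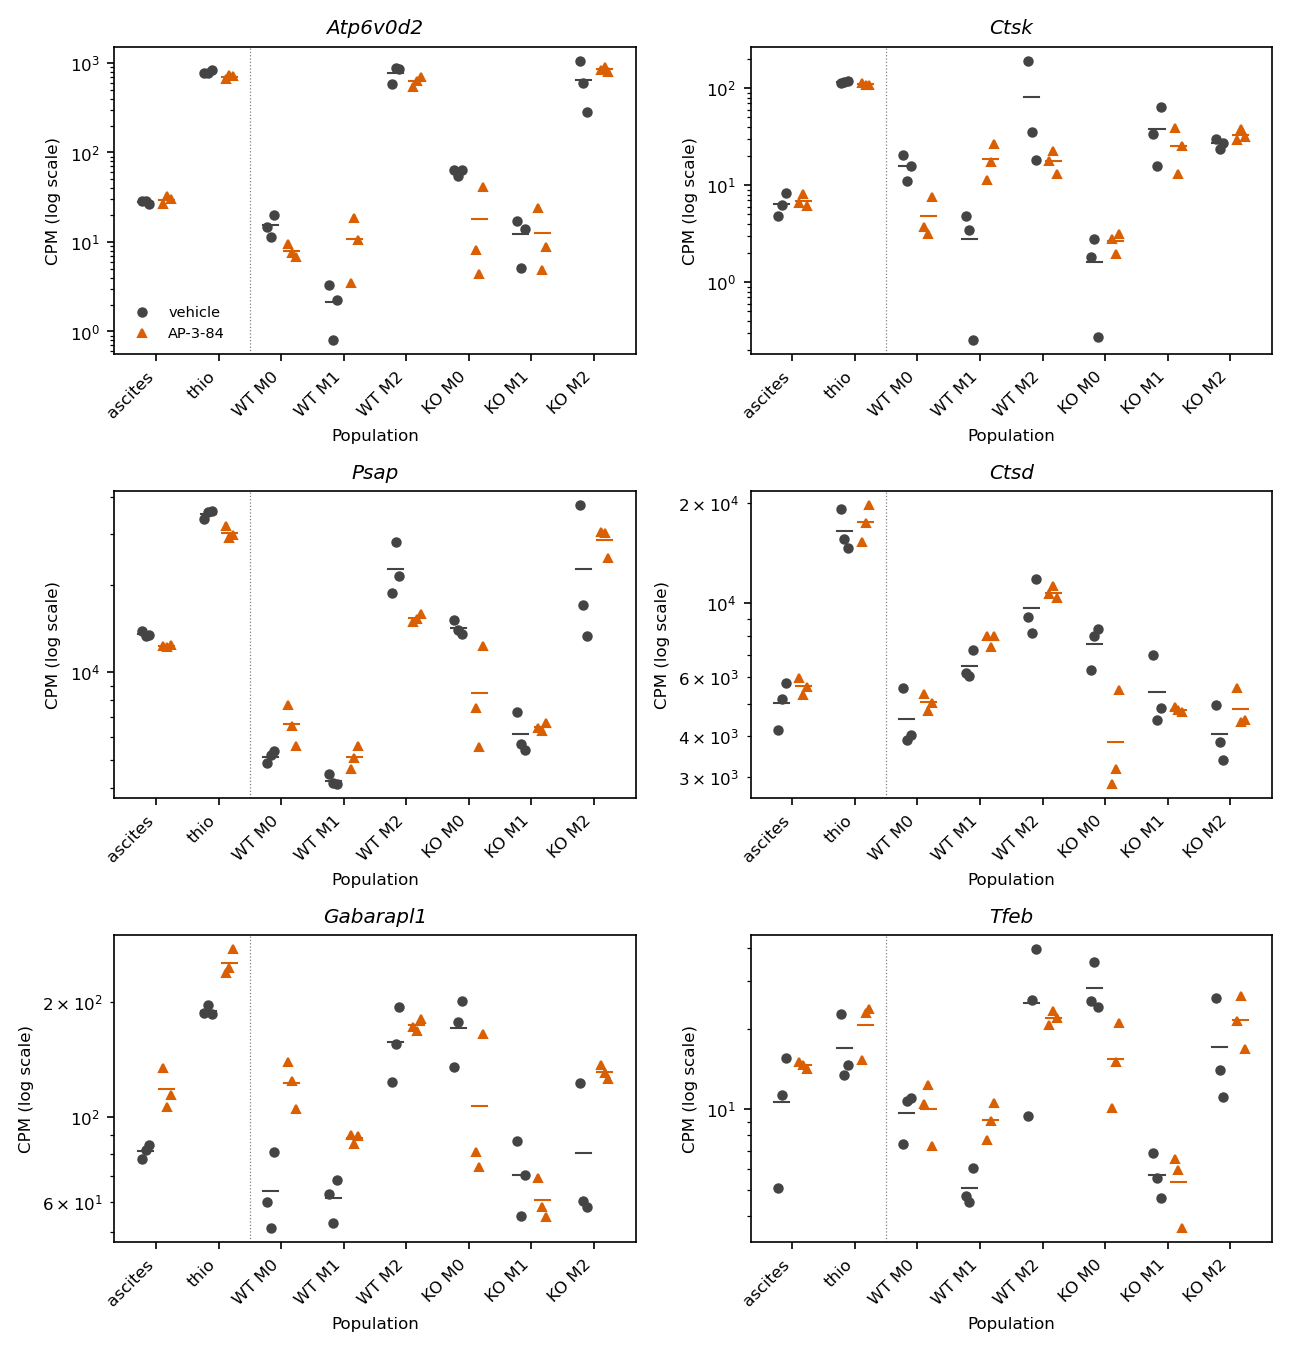
Levels of 6 members in CPM (log scale) in the 8 populations, with vehicle as grey circles and AP-3-84 as orange triangles. Each point is a library and each short line the mean of 3. Atp6v0d2 lies between 577 and 881 CPM in WT M2 vehicle libraries and between 11.2 and 19.9 CPM in WT M0, and between 26.7 and 29.0 CPM in ascites against 766 to 844 CPM in thio.

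Inflammatory activation changed fewer members and in both directions. In WT M1 against M0, 7 rose and 5 fell, so that 12 of 51 were called against 15.5% of all genes (8.01% higher and 7.49% lower). Scaling by total counts gave 4 rises and 13 falls instead, with a shift of -0.30 in the median of all genes, so the balance of directions depended on the scaling. Ctsz (log2 fold change 1.12 ± 0.15), Ctsc (1.09 ± 0.23) and Ctsh (0.88 ± 0.20), an aminopeptidase, rose (adjusted p = 4.97e-06, 0.00107 and 0.00255). Ctsc was at 361, 482 and 410.5 CPM in M0 and 874, 885 and 902 CPM in M1, without overlap. Lipa, the acid lipase that frees cholesterol from its esters, fell from 697, 621 and 656 CPM to 264, 247 and 222 CPM (log2 fold change -1.43 ± 0.26 (SE), adjusted p = 0.000262). Atp6v0d2 fell to 3.28, 0.795 and 2.27 CPM in M1, from 11, 3 and 9 counts (log2 fold change -2.86 ± 0.84 (SE), adjusted p = 0.0215), a call lost without WT M0 vehicle replicate 3 or WT M1 vehicle replicate 2 or 3 (adjusted p = 0.0673 to 0.0995). Ctsk fell to 4.77, 3.44 and 0.252 CPM, from 16, 13 and 1 counts (log2 fold change -2.52 ± 0.80 (SE), adjusted p = 0.0325), and was lost without WT M0 vehicle replicate 1 or 3 or WT M1 vehicle replicate 2 or 3 (adjusted p = 0.0686 to 0.145). Tfe3 was 0.60 higher on the log2 scale (adjusted p = 0.00539), which scaling by total counts removed (log2 fold change 0.29, adjusted p = 0.168). None of the 10 autophagy genes was called.

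Set directly against M2, M1 macrophages had lower levels of 33 members and higher levels of 2 (background 25.5%, with 11.9% higher and 13.6% lower), and the median log2 fold change was -0.68. The largest difference was that of Atp6v0d2 (log2 fold change -8.52 ± 0.83 (SE), adjusted p = 2.37e-08), followed by Ctsk (-4.88 ± 0.78; -3.30 without WT M2 vehicle replicate 1), Atp6v0a1 (-2.62 ± 0.20) and Psap (-2.42 ± 0.26). Tfeb was at 4.77, 4.50 and 6.04 CPM in M1, below each of the M2 libraries (log2 fold change -2.27 ± 0.38 (SE), adjusted p = 2.36e-05). Ctsc (2.59 ± 0.24) and the sialidase Neu1 (0.64 ± 0.17) were the members higher in M1. The Ctsk call was lost when only the groups compared were fitted (log2 fold change -4.92, adjusted p = 0.0705) and the Neu1 call without WT M2 vehicle replicate 2 (log2 fold change 0.49, adjusted p = 0.0645). This comparison shares its libraries with those against M0 and is not a separate observation.

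Unpolarized p53 KO macrophages held more of the module's RNA than WT ones. Between KO and WT M0 vehicle libraries 20 members were higher and 6 lower in KO, against 33.2% of all genes tested (16.4% higher, 16.8% lower). The median log2 fold change was 0.30, against 0.03 over all genes. The share of counts was 5.26% ± 0.0605 in KO M0 and 3.28% ± 0.142 in WT M0 (SD, n = 3). Psap alone was at 15120, 14020 and 13540 CPM in KO M0 and 4861, 5188 and 5343 CPM in WT M0, and weighs heavily in this share. WT and KO cultures differ in donor as well as in genotype, and the labels give no batches, so these cannot be told apart. Summed macrophage markers overlapped between KO and WT in M0 (33200 to 39900 and 31000 to 39500 CPM with vehicle). In M1 they were 16900 to 26100 in KO and 44600 to 47500 CPM in WT. In M2 they were 6500 to 19000 and 25600 to 31700 CPM. Fibroblast markers summed to 161 to 288 in KO and 22.7 to 26.2 CPM in WT M0. In M1 they were 97.5 to 135 and 21.7 to 46.6 CPM, and in M2 they overlapped. Osteoclast markers summed to 53.2 to 64.6 in KO and 119 to 240 CPM in WT M0. They were 307 to 636 and 221 to 246 CPM in M1. Neutrophil markers summed to 601 to 755 in KO and 283 to 513 CPM in WT M0. They were 996 to 2560 and 442 to 571 CPM in M1. Both osteoclast and neutrophil markers overlapped in M2. B cell, T cell and mast cell or eosinophil markers were also higher in KO than in WT M0, without overlap. The part of these differences in the results was not tested.

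Proteases were split. Ctss was higher in KO M0, at 3210, 3264 and 3483 CPM against 1204, 1489 and 1637 CPM in WT (log2 fold change 1.20 ± 0.25 (SE), adjusted p = 0.000584), and Ctsd was higher at 6308, 8001 and 8402 CPM against 5573, 3892 and 4021 CPM (log2 fold change 0.75 ± 0.19 (SE), adjusted p = 0.00344). Neither overlapped. Ctsk was nearly absent from KO M0 vehicle libraries, at 1.83, 2.77 and 0.271 CPM from 7, 9 and 1 counts, and lower than in WT (log2 fold change -3.29 ± 0.88 (SE), adjusted p = 0.00547). Ctsl was lower too (log2 fold change -1.29 ± 0.40 (SE), adjusted p = 0.0145), a call lost without WT M0 vehicle replicate 1 or KO M0 vehicle replicate 3 (adjusted p = 0.0632 to 0.127). Psap (log2 fold change 1.47 ± 0.25, adjusted p = 6.35e-05) and Man2b1, the lysosomal alpha-mannosidase (1.45 ± 0.35, adjusted p = 0.0022), were higher in KO. Lamp1 was at 1653, 1748 and 1846 CPM in KO and 1064, 1252 and 1197 CPM in WT (log2 fold change 0.58 ± 0.13 (SE), adjusted p = 0.00109).

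Both transcription factors were higher in KO M0. Tfeb was at 25.4, 35.4 and 24.1 CPM against 7.40, 10.8 and 11.0 CPM in WT (log2 fold change 1.54 ± 0.35 (SE), adjusted p = 0.00109). Tfe3 was at 104, 106 and 107 CPM against 54.3, 64.8 and 67.7 CPM (log2 fold change 0.76 ± 0.15 (SE), adjusted p = 0.000212). No KO library overlapped a WT library for either gene. Autophagy genes were higher in 4 of 10, among them Gabarapl1 at 135, 178 and 201 CPM against 59.9, 51.1 and 81.3 CPM (log2 fold change 1.42 ± 0.26 (SE), adjusted p = 0.00012), Ulk1 (1.07 ± 0.25, adjusted p = 0.00132) and Map1lc3b (0.81 ± 0.17, adjusted p = 0.000487). V-ATPase genes did not move as a block. Atp6v0d2 (1.98 ± 0.61, adjusted p = 0.0142) and Atp6v0a1 (0.80 ± 0.19) were higher, while Atp6v1h (-0.93 ± 0.22), Atp6v1e1 (-0.52 ± 0.17) and Atp6v1b2 (-0.51 ± 0.14), all of the V1 sector, were lower. Atp6v1b2 was lost without WT M0 vehicle replicate 1 or KO M0 vehicle replicate 3 (adjusted p = 0.0515 to 0.0581), and Atp6v1e1 without those or KO M0 vehicle replicate 1 (adjusted p = 0.0522 to 0.0572). The Atp6v0d2 call was lost without WT M0 vehicle replicate 1 or 2 (adjusted p = 0.0519 to 0.0636). Mcoln1 (adjusted p = 0.56) and Wipi1 (adjusted p = 0.0545) were not called. Among the 131 other genes of the pathway, 44 were higher and 13 lower in KO, with Rragd again among the higher (log2 fold change 2.13 ± 0.42 (SE), adjusted p = 0.000239). The autophagy receptor Calcoco1 was higher as well (log2 fold change 2.86 ± 0.44 (SE), adjusted p = 1.35e-05).

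After polarization, fewer members separated the genotypes. In M1, 3 were higher and 6 lower in KO (background 11.6%, with 5.93% higher and 5.71% lower). Under scaling by total counts, which shifted the median of all genes by 0.27, there were 11 higher and 2 lower. Ctsk was the largest, at 34.1, 15.9 and 64.0 CPM in KO M1 against 4.77, 3.44 and 0.252 CPM in WT M1 (log2 fold change 3.78 ± 0.78 (SE), adjusted p = 0.00272). The groups did not overlap. Slc36a1, a transporter that exports amino acids from lysosomes, was lower in KO M1 (log2 fold change -1.14 ± 0.19 (SE), adjusted p = 0.000232), as was Ctsc (log2 fold change -1.13 ± 0.23 (SE), adjusted p = 0.00158). Mcoln1 was called higher (log2 fold change 0.99 ± 0.31 (SE), adjusted p = 0.0322; 0.61 without KO M1 vehicle replicate 1), but not when any of WT M1 vehicle replicates 1 and 2 or KO M1 vehicle replicates 1 and 3 was left out (adjusted p = 0.0691 to 0.268). Gla, the alpha-galactosidase, was higher (log2 fold change 1.08 ± 0.23) and Gusb, the beta-glucuronidase, lower (-0.72 ± 0.19), the latter lost without WT M1 vehicle replicate 2 or KO M1 vehicle replicate 1 or 3 (adjusted p = 0.0504 to 0.105).

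In M2, 9 members were lower in KO and 0 higher (background 3.56%, with 1.21% higher and 2.34% lower), and only 2 of these calls held whichever library was left out, those of Ctsd and Glb1, the lysosomal beta-galactosidase. Ctsd was at 4943, 3830 and 3379 CPM in KO M2 and 9122, 8144 and 11870 CPM in WT M2 (log2 fold change -1.26 ± 0.20 (SE), adjusted p = 0.000214). The count moved from 2 without KO M2 vehicle replicate 3 to 21 without KO M2 vehicle replicate 1, and it was 0 when only the libraries of these groups were fitted. Map1lc3a (-1.01 ± 0.27) and Gabarapl1 (-0.97 ± 0.26) had the next largest differences among called members (adjusted p = 0.0293 and 0.0278). Each was lost without WT M2 vehicle replicate 3 or KO M2 vehicle replicate 2 or 3 (adjusted p = 0.0502 to 0.173 and 0.125 to 0.205), Map1lc3a also without WT M2 vehicle replicate 1.

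Within KO cells, M1 and M2 were each compared with the same KO M0 vehicle libraries. In M1, 24 members fell and 11 rose (background 44.5%, with 22.8% higher and 21.8% lower), and in M2 18 rose and 12 fell (background 38.0%, with 20.1% higher and 18.0% lower). V-ATPase genes rose in 11 of 13 in M2 and none fell, while autophagy genes fell in 6 of 10 and none rose. Atp6v0d2 went from 62.9, 54.5 and 63.6 CPM in KO M0 to 1052, 589 and 279.5 CPM in KO M2 (log2 fold change 3.41 ± 0.59 (SE), adjusted p = 7.8e-05) and to 17.3, 5.06 and 14.1 CPM in KO M1 (log2 fold change -2.31 ± 0.62 (SE), adjusted p = 0.00411). All KO M2 libraries were above the KO M0 libraries and all KO M1 libraries below. Ctsk, nearly absent in KO M0, was higher in both KO M1 (log2 fold change 4.56 ± 0.85) and KO M2 (4.06 ± 0.85), where it stood at 30.2, 23.6 and 27.3 CPM. Ctsl rose in both as well (1.32 ± 0.40 and 1.37 ± 0.40), and so did Ctsz (1.22 ± 0.15 and 1.31 ± 0.15).

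Tfeb fell in KO M1, from 25.4, 35.4 and 24.1 CPM in M0 to 6.87, 5.57 and 4.69 CPM (log2 fold change -2.31 ± 0.37 (SE), adjusted p = 8.3e-06). In KO M2, at 26.0, 14.0 and 11.2 CPM, it was not called (adjusted p = 0.0833), while Tfe3 fell (log2 fold change -1.09 ± 0.15 (SE), adjusted p = 1.03e-06). Man2b1 was lower than in KO M0 in both KO M1 (-2.56 ± 0.36) and KO M2 (-1.61 ± 0.35), as were Ulk1 (-1.46 ± 0.25 and -1.22 ± 0.25) and Gabarapl1 (-1.28 ± 0.26 and -1.09 ± 0.26). Lipa fell in KO M1 (log2 fold change -2.15 ± 0.26 (SE), adjusted p = 2.28e-07). Psap was at 37610, 17020 and 13330 CPM in KO M2 and 15120, 14020 and 13540 CPM in KO M0 (log2 fold change 0.67 ± 0.25 (SE), adjusted p = 0.0325). Its KO M2 level was high in replicate 1 only, and without that library the difference was gone (log2 fold change 0.10, adjusted p = 0.742). The call was also lost on leaving out any KO M0 vehicle library (adjusted p = 0.0585 to 0.104).

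Between KO M1 and KO M2, 16 members were lower and 6 higher in M1 (background 25.4%, with 12.4% higher and 13.0% lower). Atp6v0d2 (log2 fold change -5.72 ± 0.68 (SE), adjusted p = 7.82e-07), Atp6v0a1 (log2 fold change -2.40 ± 0.19), Psap (-1.89 ± 0.25; -1.31 without KO M2 vehicle replicate 1) and Lipa (-1.79 ± 0.26) were lower in M1. Ctsc (1.24 ± 0.23) and Neu1 (0.97 ± 0.17) were higher. Ctsh was called higher (0.62 ± 0.20, adjusted p = 0.0192) but not without KO M1 vehicle replicate 1 or KO M2 vehicle replicate 2 or 3 (adjusted p = 0.107 to 0.187), and it was 1.00 without KO M2 vehicle replicate 1.

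The difference between the genotypes in their response to polarization was tested as an interaction. For M2 against M0, 27 members had a lower response in KO and 2 a higher one (background 27.1%, with 13.9% higher and 13.2% lower), and -0.83 was the median difference in log2 response. Gabarapl1 rose by 1.29 in WT and had -1.09 in KO, a difference of -2.39 ± 0.36 (adjusted p = 2.11e-05). Tfeb differed by -2.08 ± 0.49 (adjusted p = 0.002), Man2b1 by -2.06 ± 0.49 (adjusted p = 0.00272) and Ctsd by -2.01 ± 0.28 (adjusted p = 4.76e-06). Atp6v0d2 differed by -2.25 ± 0.81 (adjusted p = 0.0404), which was lost on leaving out any of 9 libraries (adjusted p = 0.056 to 0.105). Ctsc had a higher response in KO (0.99 ± 0.32), lost without WT M0 vehicle replicate 2 or KO M0 or KO M2 vehicle replicate 3 (adjusted p = 0.0568 to 0.0892), and so did Atp6v1b2 (0.81 ± 0.19, adjusted p = 0.00261).

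For M1 against M0, the response was lower in KO for 17 members and higher for 4 (background 20.7%, with 11.2% higher and 9.51% lower), or 9 and 8 under scaling by total counts. Ctsk fell in WT and was higher in KO, a difference of 7.08 ± 1.17 (adjusted p = 0.000105). Man2b1 (-2.27 ± 0.49), Slc36a1 (-1.44 ± 0.27), Ulk1 (-1.41 ± 0.36) and Hexa, the alpha subunit of beta-hexosaminidase (-1.36 ± 0.38), had the largest differences among called members in the other direction, with adjusted p from 0.00147 to 0.0121. These interactions rest on the KO M0 vehicle libraries, as do the comparisons of KO M0 with WT M0 and of AP-3-84 with vehicle in KO M0, so their values are not separate observations. The 3 KO M0 vehicle libraries lay close together, with median log2 ratios to WT M0 of 0.29, 0.31 and 0.35 over the members.

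**Figure D3:**
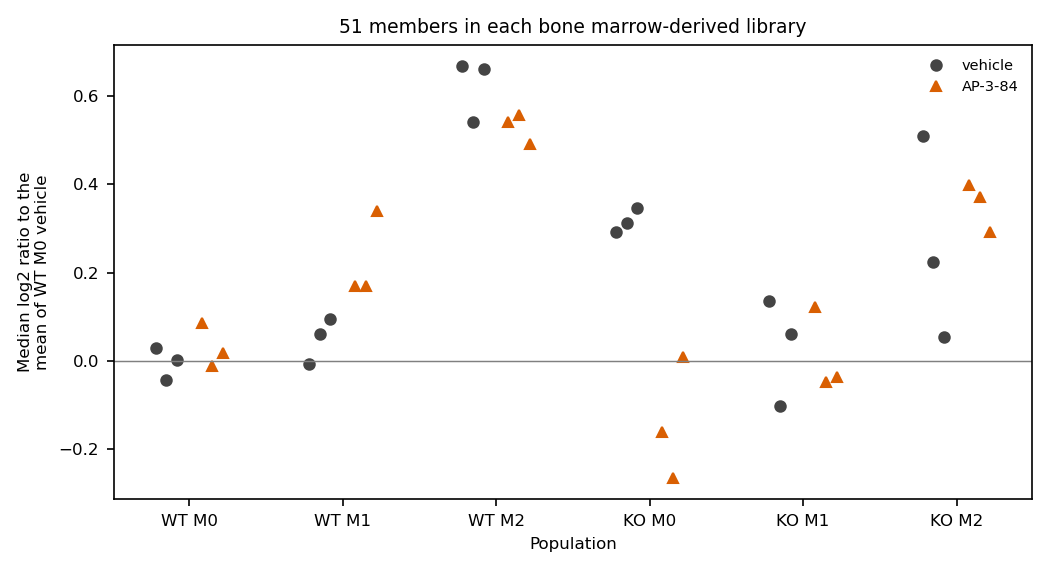
Median log2 ratio of the 51 members to the mean of WT M0 vehicle, for each of the 36 bone marrow-derived libraries (grey circles vehicle, orange triangles AP-3-84). KO M0 vehicle libraries sit at 0.29 to 0.35 and KO M0 libraries with AP-3-84 at -0.27 to 0.01, and the KO M2 vehicle libraries spread from 0.05 to 0.51.

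Few members were called with AP-3-84 in peritoneal macrophages. In ascites, 3 of 51 members were called, 1 higher and 2 lower, against 1.79% of all genes (1.69% higher and 0.1% lower), and the median log2 fold change was 0.02. In thio, 2 rose and 6 fell against 4.32% of all genes (2.51% higher and 1.82% lower), with a median of -0.05 (all genes 0.03). The share of counts in the members was 4.98% ± 0.103 with the compound in ascites and 8.73% ± 0.102 in thio (SD, n = 3). With all 48 libraries in one fit, which share one estimate of the spread, none of these 11 calls remained.

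Gabarapl1 rose with AP-3-84 in both. In ascites it had 77.6, 82.1 and 84.6 CPM with vehicle and 134, 106 and 114 CPM with the compound (log2 fold change 0.54 ± 0.08 (SE), adjusted p = 0.000901). In thio it had 187, 196 and 186 CPM with vehicle and 238, 245 and 275 CPM with the compound (log2 fold change 0.41 ± 0.08 (SE), adjusted p = 0.0063). Treated libraries lay above every vehicle library in each population. In WT M0 cells the levels were 59.9, 51.1 and 81.3 CPM with vehicle and 139.5, 124 and 105 CPM with AP-3-84, again without overlap, but the gene was not called there (log2 fold change 0.94 ± 0.26, adjusted p = 0.166).

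Slc36a1 fell in both peritoneal populations. In ascites it went from 125, 126 and 136 CPM to 101, 109.8 and 98.7 CPM (log2 fold change -0.33 ± 0.07 (SE), adjusted p = 0.013), a call lost without ascites replicate 3 of either treatment (adjusted p = 0.0624 to 0.0904). In thio it went from 171, 164 and 168 CPM to 132, 129.8 and 145 CPM (log2 fold change -0.30 ± 0.07 (SE), adjusted p = 0.0128), lost without thio vehicle replicate 1 or 3 or thio AP-3-84 replicate 1 or 2 (adjusted p = 0.0522 to 0.0701). Treated and vehicle libraries did not overlap in either population. Neu1 was called lower in ascites (log2 fold change -0.26 ± 0.06 (SE), adjusted p = 0.0488) and in thio (-0.24, adjusted p = 0.0408). Leaving out all but ascites AP-3-84 replicate 1 in the former (adjusted p = 0.107 to 0.253) and all but thio AP-3-84 replicate 3 in the latter (adjusted p = 0.0945 to 0.172) ended its call.

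In thio, Atp6v1h, a regulatory subunit of the V1 sector, rose from 54.0, 54.6 and 62.6 CPM to 91.4, 79.7 and 80.1 CPM, without overlap (log2 fold change 0.55 ± 0.09 (SE), adjusted p = 0.00115). Ctsh fell from 514, 519 and 522 CPM to 375, 407 and 410.2 CPM (log2 fold change -0.38 ± 0.05 (SE), adjusted p = 0.000373) and Ctsc from 66.2, 66.7 and 66.2 CPM to 48.3, 55.6 and 48.2 CPM (log2 fold change -0.39 ± 0.08 (SE), adjusted p = 0.00749), each without overlap. These 3 calls and that of Gabarapl1 held whichever library was left out. Tpp1 (-0.28 ± 0.06) and Psap (-0.21 ± 0.05) were also called lower. Tpp1 was lost without thio vehicle or AP-3-84 replicate 2 (adjusted p = 0.0503 to 0.055), and Psap without replicate 2 or 3 of either treatment (adjusted p = 0.0527 to 0.0877). The difference between ascites and thio in the response to AP-3-84 was called by edgeR for 0 members (background 0.118%), with 3 at an unadjusted p under 0.05 and 0 called by DESeq2.

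Transcripts of Tfeb and Tfe3 were not called with AP-3-84 in any of the 8 populations, and neither were those of Mcoln1, Ctsk, Ctsl and Ctss. Tfeb had 5.09, 11.3 and 15.6 CPM with vehicle and 15.0, 14.7 and 14.2 CPM with AP-3-84 in ascites, and 22.6, 13.4 and 14.6 CPM and 15.3, 22.9 and 23.6 CPM in thio. In all, 25 of the 51 members were never called in a comparison of AP-3-84 with vehicle. The share of all genes never called was not counted. Single comparisons called 0.0% (KO M1) to 20.7% (KO M0) of all genes tested. Outside the module, Sqstm1, the autophagy receptor p62, rose in ascites from 383, 379 and 375 CPM to 801, 622 and 668 CPM (log2 fold change 0.88 ± 0.09 (SE), adjusted p = 7.71e-06), in thio from 521, 492 and 488 CPM to 940.1, 833 and 1019 CPM (log2 fold change 0.90 ± 0.08 (SE), adjusted p = 7.98e-06) and in WT M0 from 593, 689 and 724 CPM to 1341, 1186 and 1158 CPM (log2 fold change 0.88 ± 0.19 (SE), adjusted p = 0.042). It was the only one of 134 other pathway genes called in ascites and of 131 in WT M0. In thio 5 of the 134 rose and 11 fell.

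**Figure D4:**
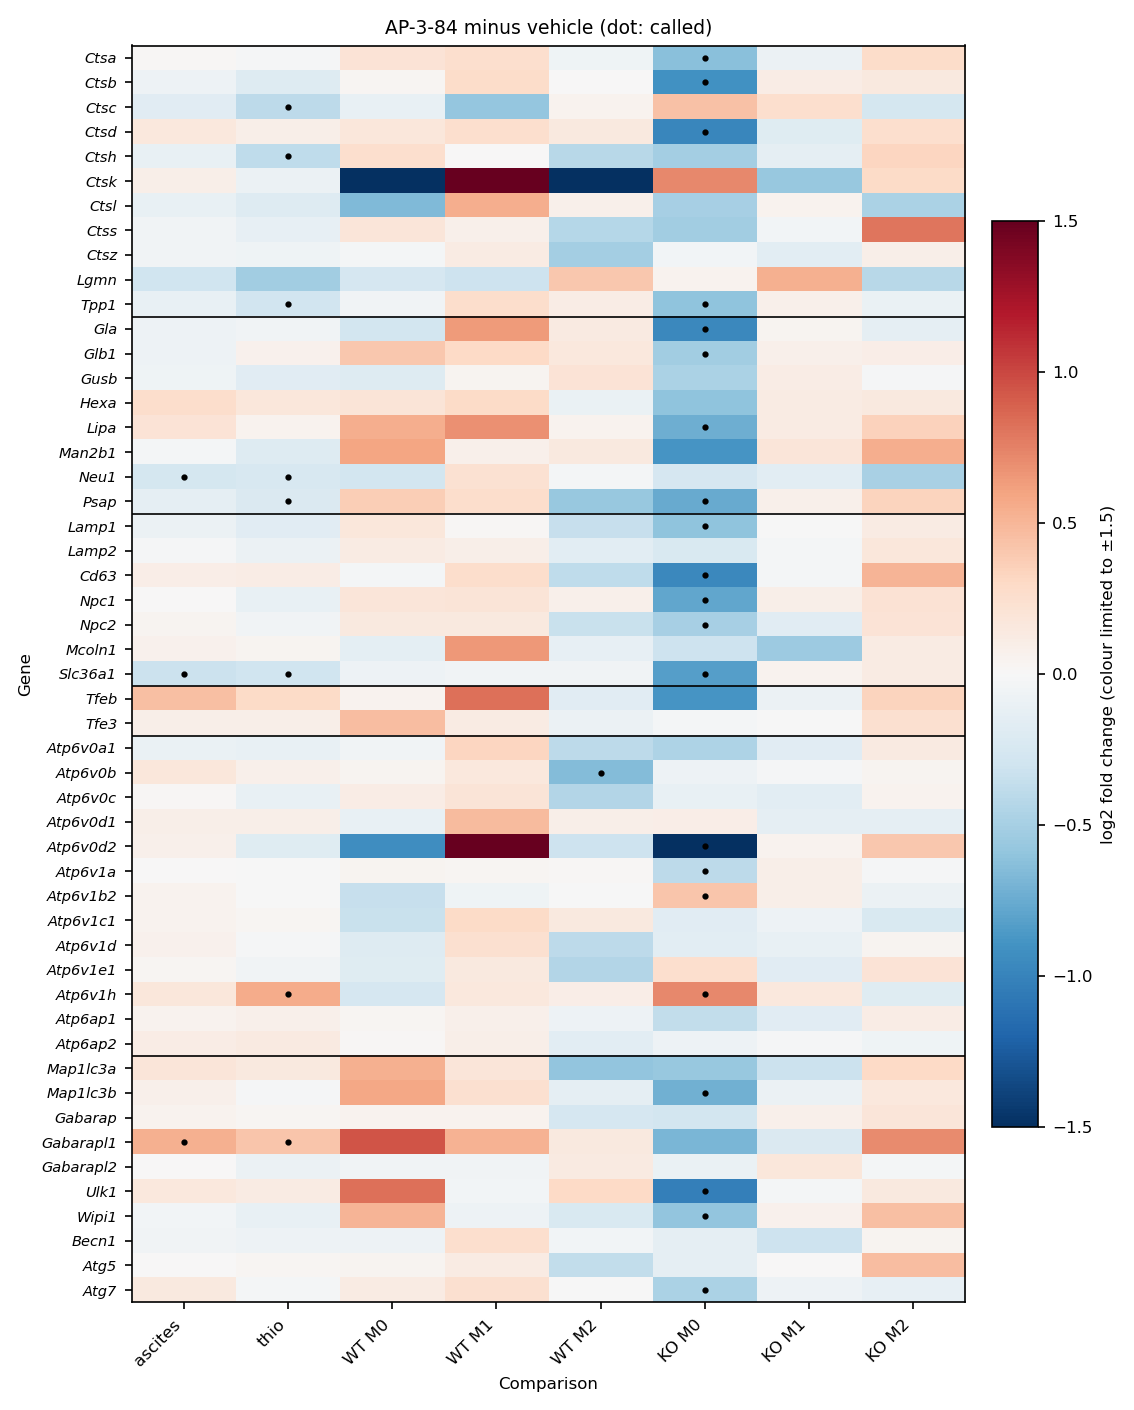
Heat map of log2 fold changes of AP-3-84 against vehicle for the 51 members (rows, ordered by role, lines between roles) in the 8 populations (columns), with colour limited to 1.5 in either direction and a dot where edgeR called the gene. KO M0 has 21 dots, thio 8, ascites 3, WT M2 1 and the other columns none.

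In WT bone marrow-derived macrophages AP-3-84 changed 1 member in M2 (background 1.21%, with 0.229% higher and 0.976% lower) and 0 in M0 (background 0.144%) and M1 (background 0.017%) by edgeR. At an unadjusted p under 0.05 there were 10 in M0, 8 in M1 and 13 in M2, and DESeq2 called 0, 0 and 3. The member called in M2 was Atp6v0b, of the proton-carrying ring, with 718, 480.1 and 500.3 CPM with vehicle and 338, 371 and 369.7 CPM with AP-3-84 (log2 fold change -0.65 ± 0.17 (SE), adjusted p = 0.0383). The groups did not overlap, but vehicle replicate 1 was the highest and the call was lost without it (log2 fold change -0.46, adjusted p = 0.241) and without any of the 3 treated libraries (adjusted p = 0.0921 to 0.221). In WT M1 the treated libraries had median log2 ratios to WT M0 vehicle of 0.17, 0.17 and 0.34 over the members, against -0.01, 0.06 and 0.09 with vehicle, without any member reaching a call.

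In KO M0 macrophages AP-3-84 was accompanied by lower levels of much of the module. By edgeR 19 members were lower and 2 higher, against 8.57% and 12.1% of all genes (20.7% in all). The median log2 fold change was -0.47, against -0.03 over all genes. Summed over the 51 genes, vehicle libraries had 47883, 50016 and 48707 CPM and treated libraries 29063, 24767 and 40516 CPM. Replicate 2 with AP-3-84 was the lowest and replicate 3 the closest to vehicle.

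This result rests on how the spread is estimated. With only the 6 KO M0 libraries in the fit, all 21 calls were lost (adjusted p = 0.0523 for Ctsd, the lowest, to 0.252 for Tpp1, the highest). Leaving out AP-3-84 replicate 2 left 9 calls and leaving out replicate 3 gave 27, and 9 of the 21 held whichever library was left out. The treated libraries also differed from vehicle in other ways: Adgre1, which encodes F4/80, was at 2408, 1467 and 657 CPM with AP-3-84 and 484, 504 and 466 CPM with vehicle, and Saa3, an acute-phase gene, at 1715, 1557 and 387 CPM and 55.0, 102 and 18.4 CPM. In WT M0 vehicle libraries Adgre1 was at 960.1, 1184 and 1148 CPM and Saa3 at 72.0, 421 and 628 CPM. Ccng1, at 33.1, 30.1 and 25.1 CPM, was within the KO range in all 3. AP-3-84 replicate 3, with the smallest of these differences, correlated best with KO M0 vehicle replicate 1. Osteoclast markers summed to 53.2 to 64.6 CPM with vehicle and 77.0 to 194 CPM with AP-3-84, and the part of these differences in the result was not tested.

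Among proteases 4 of 11 fell in KO M0. Ctsd had 6308, 8001 and 8402 CPM with vehicle and 2858, 3174 and 5490 CPM with AP-3-84 (log2 fold change -0.98 ± 0.20 (SE), adjusted p = 0.000573). Every treated library was below every vehicle library. Ctsb, a cysteine protease, fell by 0.91 on the log2 scale (adjusted p = 0.00154) and Ctsa, the protective protein of the sialidase complex, by 0.62 (adjusted p = 0.0026). Glycosidases, lipases and activators fell in 4 of 8 and membrane genes in 5 of 7. Cd63 went from 1681, 1683 and 1609 CPM to 736, 556 and 1251 CPM (log2 fold change -0.97 ± 0.20 (SE), adjusted p = 0.000874). Lamp1 went from 1653, 1748 and 1846 CPM to 1222, 937 and 1298 CPM (log2 fold change -0.60 ± 0.13 (SE), adjusted p = 0.00138). Slc36a1 fell here as well (log2 fold change -0.83 ± 0.19 (SE), adjusted p = 0.00247).

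Of the V-ATPase genes, 2 were higher and 2 lower. Atp6v0d2 had 62.9, 54.5 and 63.6 CPM with vehicle and 8.08, 4.44 and 41.0 CPM with AP-3-84 (log2 fold change -1.77 ± 0.60 (SE), adjusted p = 0.0386). Without AP-3-84 replicate 3 the log2 fold change was -3.26, and the call was lost without any other of the 6 libraries (adjusted p = 0.0656 to 0.207). Atp6v1h rose from 26.7, 32.3 and 24.6 CPM to 49.0, 47.4 and 41.3 CPM (log2 fold change 0.72 ± 0.22 (SE), adjusted p = 0.0167), lost without vehicle replicate 1 or 3 or AP-3-84 replicate 1 or 2 (adjusted p = 0.0521 to 0.0732). Atp6v1b2 was called higher (log2 fold change 0.42 ± 0.14 (SE), adjusted p = 0.0277), lost without vehicle replicate 2 or 3 or AP-3-84 replicate 1 or 2 (adjusted p = 0.0527 to 0.183).

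Autophagy genes were lower in 4 of 10. Ulk1 had 56.3, 61.9 and 55.2 CPM with vehicle and 19.7, 21.5 and 43.9 CPM with AP-3-84 (log2 fold change -1.03 ± 0.25 (SE), adjusted p = 0.00336). Map1lc3b had 350.1, 415 and 373 CPM and 194, 183 and 317 CPM (log2 fold change -0.72 ± 0.17 (SE), adjusted p = 0.00272). Both fell without overlap. Wipi1 was called lower (-0.59 ± 0.16, adjusted p = 0.00953) but not without AP-3-84 replicate 1 or 2 (adjusted p = 0.0609 to 0.0949). Gabarapl1, which rose in the peritoneal cells, had 135, 178 and 201 CPM with vehicle and 80.8, 74.2 and 165 CPM with AP-3-84 in KO M0 and was not called (log2 fold change -0.68 ± 0.25, adjusted p = 0.0527). Of 131 other pathway genes 40 fell and 7 rose. The falls included Calcoco1 (log2 fold change -2.26 ± 0.42 (SE), adjusted p = 0.00032) and Rragd (log2 fold change -1.74 ± 0.41 (SE), adjusted p = 0.00265), and the rises Acp5, the tartrate-resistant acid phosphatase of osteoclasts and macrophages (log2 fold change 3.74 ± 0.85 (SE), adjusted p = 0.00296).

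The response to AP-3-84 differed between KO M0 and WT M0 for 18 members, 16 of them lower and 2 higher in KO (background 17.0%, with 10.0% higher and 6.99% lower). Ulk1 (difference in log2 response -1.85 ± 0.35, adjusted p = 0.0006), Gabarapl1 (-1.62 ± 0.36, adjusted p = 0.00272) and Map1lc3b (-1.30 ± 0.24, adjusted p = 0.000407) were among 10 calls that held under every alternative tried but a minimum fold change. Man2b1 (-1.48 ± 0.48, adjusted p = 0.0343) was lost without any of 8 libraries (adjusted p = 0.0512 to 0.114). Atp6v1b2 had a higher response in KO (0.77 ± 0.19, adjusted p = 0.00677). So had Atp6v1h (0.97 ± 0.30), which was lost without any of 6 libraries (adjusted p = 0.0536 to 0.076).

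In KO M1 and KO M2, edgeR called 0 members (backgrounds 0.0% and 0.0509%, with 0.034% higher in KO M2). At an unadjusted p under 0.05 there were 1 and 6, and DESeq2 called 0 in each. Ctsd had 6986, 4459 and 4835 CPM with vehicle and 4892, 4771 and 4724 CPM with AP-3-84 in KO M1 (adjusted p = 1.0). Without KO M2 vehicle replicate 1, the library with the highest summed level, 8 members were called in KO M2. Between genotypes the response differed for 0 members in M1 (background 0.00849%, 6 at an unadjusted p under 0.05 and 0 by DESeq2) and for 1 in M2 (background 1.77%). The latter was Atg5, which helps to join LC3 to lipid (0.83 ± 0.19, adjusted p = 0.0179), lost without KO M2 vehicle replicate 2 or 3 (adjusted p = 0.0772 to 0.0878).

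Members with CACGTG in the promoter window were set beside members with a window that lacks it. The difference between these sets was not tested, and calls among other genes with the motif were not counted. In KO M0 with AP-3-84, 8 of 14 with the motif and 8 of 28 without fell (8.57% of all genes tested). The median log2 fold changes were close, at -0.49 and -0.47. In WT M2 against M0, 7 of 14 and 22 of 28 rose (12.7% of all genes), with medians of 0.55 and 0.65. In ascites against thio, 12 of 14 and 20 of 28 fell (13.4% of all genes), with medians of -0.81 and -0.46. With AP-3-84 in ascites, 0 of 14 with the motif rose and 1 fell, and of 28 without 1 rose and 1 fell (all genes 1.69% higher and 0.1% lower). In thio, 0 of 14 rose and 1 fell, and of 28 without 1 rose and 4 fell (all genes 2.51% higher and 1.82% lower). Slc36a1, which fell with the compound in both peritoneal populations and in KO M0, holds 2 matches within 31 bases of its start. Gabarapl1, which rose in the peritoneal cells, holds none in its window, and neither does Neu1, which fell in both peritoneal populations. Lgmn, the asparaginyl endopeptidase, holds 1 and was the only member called in none of the 24 comparisons.

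**Figure D5:**
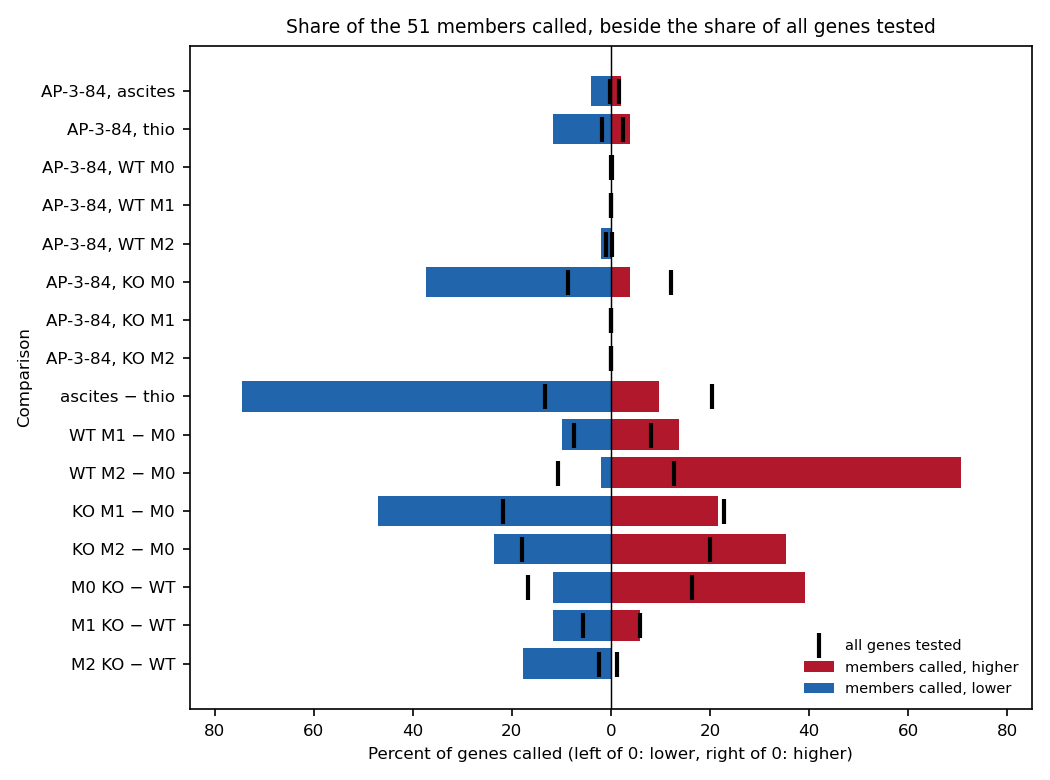
Percent of the 51 members called by edgeR in each comparison (bars, lower to the left of 0 and higher to the right), beside the percent of all genes tested (black ticks). In ascites minus thio, 38 members were lower and 5 higher while 33.7% of all genes were called, and in KO M0 with AP-3-84, 19 were lower and 2 higher while 20.7% were called.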

How the data were processed

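The 48 libraries were made by 3′ mRNA sequencing (QuantSeq FWD, 75-base single reads), per the labels' protocols. The authors deposited 1 table of whole-number counts per gene and library, and the submitters' processing notes name RSEM, Bowtie2 and DESeq2. If the counts were RSEM estimates, they had been rounded before deposit. The build, the annotation and any molecular identifiers: not given in the sources used here.

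Gene IDs were matched to symbols, and the 51 members and all other lists were chosen with earlier results of these data known. Counts were tested with edgeR 4.0.16 (limma 3.58.1, R 4.3.3): TMM scaling, genes kept by filterByExpr per group, 1 coefficient per group, robust quasi-likelihood dispersions, two-sided tests and Benjamini-Hochberg adjustment within each comparison over all genes tested (16955 in the 12 peritoneal and 11779 in the 36 bone marrow-derived libraries). A gene was called at an adjusted p under 0.05. CPM are counts per 1000000 counts of TMM-scaled library size. The text names 13 members in every main comparison where they bear on it, and the 3 largest called rises and falls of each comparison (4 where more than 10 were called in a direction). The code was tested on simulated counts, with randomly chosen genes changed in the treated group. In ascites it recovered 28 of 100 changes of 1.5-fold and 52 of 100 of 2-fold. In WT M0 it recovered 7 and 32 of 100, so a gene not called may still have changed. The changed genes were drawn from all genes past the filter and not matched to the members in level. These rates are therefore not those of the members. Alternatives were median-ratio size factors, total-count scaling, no filter on low counts, DESeq2 1.42.0, calls limited to absolute log2 fold changes from 1 upwards, a joint fit of all 48 libraries, a fit of only the compared groups, a replicate block, and omission of each library in turn. Overlapping genes (Map1lc3b with Gm20388, Ctsa with Pltp on the other strand) may share reads. Promoter windows came from RefSeq (GRCm38.p6) and were read with Python 3.11.15.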

Additional observations from a re-analysis of the deposited data

Results flagged for a closer look

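In M0, the change with AP-3-84 differed between KO and WT macrophages for 18 members by edgeR's test of the difference between effects (difference in log2 fold change, KO minus WT, adjusted p from 0.000407 to 0.0418). The proteases called had differences of -0.83 for Ctsa, -0.94 for Ctsb and -1.15 for Ctsd. For the glycosidases, lipases and activators they were -0.93 for Glb1, -1.28 for Lipa, -1.48 for Man2b1 and -1.12 for Psap. Called membrane and transport genes had -0.78 for Lamp1, -0.94 for Cd63, -0.96 for Npc1 and -0.64 for Npc2. Among the V-ATPase genes they were 0.77 for Atp6v1b2 and 0.97 for Atp6v1h. Called autophagy genes gave -1.10 for Map1lc3a, -1.30 for Map1lc3b, -1.62 for Gabarapl1, -1.85 for Ulk1 and -1.09 for Wipi1. In M2 that difference was called for 1 member. Atg5 had a difference of 0.83 ± 0.19 (SE, adjusted p = 0.0179).

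The change from M0 to M1 differed between KO and WT vehicle libraries for 21 members (difference in log2 fold change, KO minus WT, adjusted p from 0.000105 to 0.0376). Proteases called had -0.59 for Ctsa, -1.01 for Ctsd, -0.85 for Ctsh, 7.08 for Ctsk and -1.06 for Ctss. In the glycosidases, lipases and activators the differences were 1.12 for Gla, -0.79 for Glb1, -1.36 for Hexa and -2.27 for Man2b1. Those of the membrane and transport genes were -0.74 for Lamp1, -0.74 for Npc1, -0.65 for Npc2 and -1.44 for Slc36a1. Of the transcription factors it was -1.17 for Tfe3. For called V-ATPase genes they were -0.96 for Atp6v0a1, 0.61 for Atp6v1d and 0.99 for Atp6v1h. Within the autophagy genes they came to -0.76 for Map1lc3b, -1.21 for Gabarapl1, -1.41 for Ulk1 and -0.93 for Wipi1. For the change from M0 to M2 it differed for 29 members (adjusted p from 4.76e-06 to 0.0404). Protease genes differed by -1.17 for Ctsa, -0.96 for Ctsb, 0.99 for Ctsc, -2.01 for Ctsd, -1.10 for Ctsh and -1.52 for Ctss. The glycosidases, lipases and activators differed by -1.24 for Glb1, -1.31 for Hexa, -1.21 for Lipa, -2.06 for Man2b1 and -1.48 for Psap. Differences of the membrane and transport genes were -0.85 for Lamp1, -0.98 for Cd63, -1.09 for Npc1, -0.71 for Npc2 and -0.83 for Slc36a1. Both transcription factors were lower in response, with -2.08 for Tfeb and -1.30 for Tfe3. In the called V-ATPase genes they were -1.19 for Atp6v0a1, -0.88 for Atp6v0b, -2.25 for Atp6v0d2, 0.81 for Atp6v1b2 and -0.91 for Atp6ap1. Finally, autophagy genes differed by -1.88 for Map1lc3a, -1.30 for Map1lc3b, -2.39 for Gabarapl1, -1.49 for Ulk1, -1.05 for Wipi1 and -0.63 for Becn1. These effects were called as different by the interaction term, and the M1 and M2 lists share the M0 libraries of both genotypes. No group was large enough for a search for single libraries far from their group.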

How the results depend on the processing

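No value changed sign under any alternative among those past the threshold. For members named in the text, 5020 values kept their side of the threshold, 224 lost it and 98 gained it. With only the groups compared, the count of members with AP-3-84 was 1 in ascites, 2 in WT M0, 1 in WT M1, 0 in WT M2 and 0 in KO M0. Over all genes these fits called 203 of 15870, 68 of 10236, 107 of 9950, 59 of 9992 and 704 of 10341. In such fits 21 members were called for WT M1 against M0, 12 for KO M1 against M2 and 0 for KO against WT in M2. For the difference in AP-3-84 response between KO and WT in M2 it was 0. All genes called were 2564 of 10231, 1782 of 10497, 7 of 10207 and 35 of 10707, in that order. With all 48 libraries in one fit, the count of members was 0 in ascites, 0 in thio and 3 in WT M2 with AP-3-84. It was 3 for the difference in response in M2. Over all genes this fit called 112, 52, 274 and 437 of 13815. Without a filter on low counts, 5 members were called in WT M0, 3 in WT M1, 3 in WT M2 and 2 in KO M2 with AP-3-84. For the difference in response between genotypes it was 2 in M1 and 4 in M2. Calls over all genes moved as well, to 311, 230, 496, 577, 162 and 757 of 22768, in the same order. In the main fit they were 17, 2, 142, 6, 1 and 208 of 11779. DESeq2 called 3 members in WT M2 with AP-3-84 and 2 for the difference in response in M2, with 263 and 356 of all 11779 genes. Scaling by total counts gave 0 in WT M2 with AP-3-84, 21 for WT M2 against M0 and 5 (1 higher and 4 lower) for KO against WT in M2. It called 118, 3060 and 640 of all 11779 genes there. It moved the median of all genes by over 0.1 on the log2 scale in 8 comparisons.

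A minimum absolute log2 fold change of 1 left 0 members in ascites, 0 in thio, 0 in WT M2 and 2 in KO M0 with AP-3-84. It left 13 for ascites against thio, 5, 13 and 14 for WT M1 against M0, M2 against M0 and M1 against M2, 15, 12 and 10 for the same in KO, and 9, 4 and 2 for KO against WT in M0, M1 and M2. For the differences between genotypes it left 9 and 0 in the response to AP-3-84 in M0 and M2, and 10 and 19 in the response to M1 and M2 polarization.

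Leaving out each library in turn gave 1 to 3 calls in ascites, 4 to 7 in thio, 0 to 2 in WT M2, 9 to 27 in KO M0 and 0 to 8 in KO M2 with AP-3-84. It gave 7 to 11 for WT M1 against M0, 4 to 9 and 2 to 21 for KO against WT in M1 and M2, and 10 to 25 and 0 to 11 for the difference in AP-3-84 response in M0 and M2. The shares of all genes are not given for these omissions or for the minimum fold change, and the cause of these shifts was not tested.

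Replicate numbers gave no pairing that held across the populations. Deviations of same-numbered vehicle and AP-3-84 libraries had correlations of -0.434 to 0.515, over 0.1 in 5 of 24 pairs. In all, 6 of 24 libraries correlated best with their own number. In KO M1 the values were 0.409, 0.515 and -0.114 for replicates 1 to 3, and in WT M2 0.267, -0.137 and 0.278. Pairing within single populations was not tested. A replicate block gave 2 calls in ascites, 7 in thio, 22 in KO M0 and 43 for ascites against thio, in place of 3, 8, 21 and 43.

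Depth limits the weakest members: Ctsk had 1 count in the lowest KO M0 vehicle library and Atp6v0d2 had 3 in the lowest WT M1 one, and the bone marrow-derived libraries held at most 4645148 counts.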

Other observations

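Lysosomal and autophagy genes outside the 51 members were described in the same fits. In unpolarized KO against WT macrophages, 13 of 38 other autophagy genes were higher and 2 lower, and 12 of 34 other hydrolases were higher and 5 lower, against 16.4% of all genes tested higher and 16.8% lower. Scarb2, the receptor that carries beta-glucocerebrosidase to lysosomes, was higher in KO (log2 fold change 1.50 ± 0.23 (SE), adjusted p = 1.13e-05). M6pr, which sorts hydrolases by their mannose 6-phosphate tag, was lower (-1.37 ± 0.27, adjusted p = 0.000252). Acp5 was lower as well (-3.82 ± 0.85, adjusted p = 0.0014), at 6.15 ± 2.57 CPM in KO and 87.2 ± 44.0 CPM in WT (SD, n = 3).

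In ascites against thio macrophages, 13 of 23 other membrane and transport genes fell and 1 rose, against 13.4% of all genes tested lower and 20.3% higher. Sort1, a sorting receptor for lysosomal enzymes, was at 41.8 ± 4.53 CPM in ascites and 183 ± 9.60 CPM in thio (SD, n = 3, log2 fold change -2.13 ± 0.08, adjusted p = 1.39e-12). Atp6v0a2, a subunit that serves the pump of the Golgi apparatus and endosomes, was higher in ascites (0.62 ± 0.08, adjusted p = 1.09e-05), whereas all 13 pump genes of the module were lower. Of the 8 pump genes tested outside the module, itself included, 5 were lower and 1 higher (median log2 fold change -0.34). With AP-3-84 in thio cells, Sesn2, a stress-induced inhibitor of mTORC1, rose (0.81 ± 0.21, adjusted p = 0.0419) and its relative Sesn1 fell (-0.67 ± 0.18, adjusted p = 0.048). Both were low, with means of 3.20 and 15.2 CPM with vehicle.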
